A study of Mus musculus with 9 samples.

Results

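The retinal pigment epithelium (RPE) was compared with the photoreceptors (PR) of the mouse eye over all genes of a whole genome microarray. The members are the 3 arrays labelled as RPE and the 3 arrays labelled as photoreceptors, 6 of the 9 arrays of the study, with every probe that is not a control. The other 3 arrays are of the choroid (CH) and entered only the estimate of the spread, with some of their values given beside those of the RPE and PR. All tissue came from female C57BL/6 mice (the J strain, C57BL/6JOlaHsd, in the study's methods), which the labels give as 6 months old with a range of 2 weeks and the study's methods give as younger. No allele, transgene or treatment distinguished the groups. Each sample was cut by laser from cryosections of one whole eye. The PR were cut from thicker sections than the RPE, and the study's methods name the Cresyl Violet stain for the PR, so that section thickness, stain and tissue cannot be told apart. The RNA was amplified and labelled with Cy5, and each array also received a Cy3 reference, one pool of RPE and choroid RNA used throughout. Dyes were not swapped.

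The RPE is a single layer of pigmented epithelial cells between the photoreceptors and the choroid. It takes up the tips that photoreceptors shed, returns visual pigment chromophore to them, moves ions, water and nutrients between blood and retina, and lays down part of the basement membrane called Bruch's membrane. Rods and cones are neurons whose outer segments are stacks of discs with the proteins of phototransduction, joined to the cell body by a connecting cilium, and they release glutamate at ribbon synapses. Both cell types exchange retinoids, glucose and lactate across the space between them.

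A value below is log2(Cy5/Cy3) of a probe after background correction and loess, so 0 means as much signal as the reference. A difference is the RPE mean minus the PR mean on that log2 scale, given with the standard error (SE) of the fit and n = 3 arrays a tissue. A negative difference means a higher value in the PR. A gene was called when its fold change exceeded 2.5 and its adjusted p was below 0.01 (limma, Benjamini-Hochberg over all probes), and it was read at 1 reported probe, the brightest that was not saturated on every array of a tissue. In these bulk samples, fewer cells of a type and less RNA per cell cannot be told apart.

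Median Cy5 signals ranged from 991 to 1534 for the RPE and from 617 to 963 for the PR. The share of spots well above background was 67.9% on RPE replicate 1, 91.8% on RPE replicate 2, 63.1% on RPE replicate 3 and 66.8% to 71.9% for the PR. Over all probes r was 0.861 to 0.918 within the RPE, 0.942 to 0.979 within the PR and 0.232 to 0.321 across the tissues, as a description over probes of shared arrays and a shared reference. PR replicates 1 and 3 shared a slide with no RPE array, RPE replicates 1 and 3 shared a slide with 2 CH arrays, and replicate 2 of each tissue lay on 1 slide. On that slide alone, 5070 of the 5073 called genes differed in the same direction as in all arrays. These arrays also entered the calls, and no called gene had overlapping arrays. The direction was therefore fixed wherever both arrays had a value, and the count is no separate check of the slides. Without RPE replicate 2, the array with the most spots above background, 3453 genes were called higher in the RPE and 1524 in the PR, and without RPE replicate 3, which stands apart in the lens markers below, 3402 and 1660, against 3427 and 1646 with all arrays.

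Markers of the labelled cell types went with the labels. Of 13 RPE markers, 11 were called higher in the RPE, and all 15 rod markers and all 9 cone markers were called higher in the PR. The RPE markers Best1, a chloride channel of the basolateral membrane, and Otx2, a transcription factor of both tissues, were not called (differences of -0.37 ± 0.10 and 0.87 ± 0.28). The Best1 probe was above background on only 1 RPE array and 1 PR array.

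Markers of other cell types were also called, beside 10.8% of all genes called higher in the RPE and 5.19% in the PR. Of 12 endothelial markers 10 were higher in the RPE, of 8 pericyte and smooth muscle markers 7, of 8 fibroblast markers 7, of 9 melanocyte markers 9 and of 12 macrophage and leukocyte markers 7. Of 8 Müller glia markers 5 were higher in the RPE (Apoe, Clu, Vim, Glul and Dkk3). Slc1a3, Aqp4 and Kcnj10 were not called and had negative differences (-0.69, -0.42 and -0.41). Of 12 amacrine and ganglion cell markers 2 were higher in the RPE, too few to set that list apart from all genes. Of 3 red blood cell markers 1 was, Alas2, which was not called with the Cy5 signal alone (2.6-fold, limma adjusted p = 0.018). The median endothelial marker ranged from 1.47 to 1.76 in the RPE, from -2.21 to -1.98 in the PR and from 1.58 to 2.07 in the CH. The median fibroblast marker ranged from -1.28 to -0.87 in the RPE, from -4.45 to -3.87 in the PR and from 1.04 to 1.42 in the CH. The summed Cy5 signal of the endothelial markers, on the log2 scale, was 18.47 to 18.78 in the RPE and 14.91 to 15.30 in the PR. That of the fibroblast markers was 18.13 to 18.58 and 15.54 to 15.91, and that of the macrophage and leukocyte markers 17.25 to 17.55 and 14.54 to 15.59. The pigment cell genes in the melanocyte list are also expressed by the RPE. Of 8 bipolar cell markers 3 were called higher in the PR, and the median of that list was 0.05 on PR replicate 2 against -0.90 and -0.68 on the other PR arrays. The 8 lens markers had a median of 4.4 on RPE replicate 3 and 1.93 on PR replicate 3, against 0.53 and 0.06 on the other RPE arrays and 0.82 and 0.00 on the other PR arrays, and none of them was called. No marker was below background on all 3 arrays of either tissue. The part of these cell types in the differences below was not tested.

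**Figure D1:**
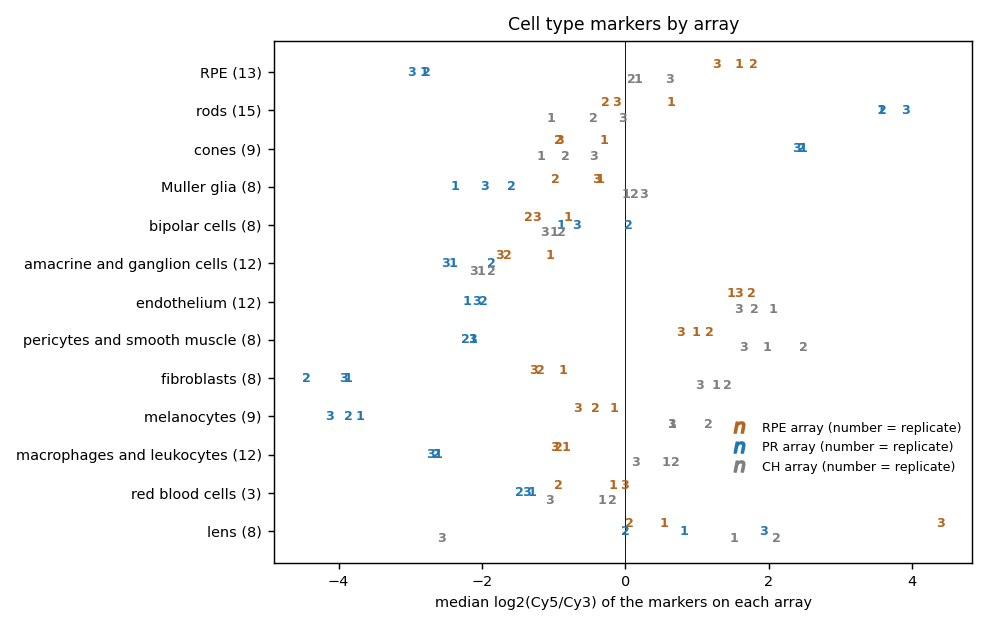
Median log2(Cy5/Cy3) of the markers of 13 cell types on each array; the number of markers is in brackets and each printed digit is the replicate number of 1 array, brown for RPE, blue for PR and grey for CH. RPE markers ranged from 1.28 to 1.78 in the RPE and from -2.97 to -2.77 in the PR, and the lens markers stood at 4.4 on RPE replicate 3.

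Of 31699 genes tested, 3427 were called higher in the RPE, which is 10.8% of the genes, and 1646 were called higher in the PR, which is 5.19%. For every called gene, all values of one tissue lay above all values of the other. The calls were made on these same arrays, so this separation adds no support, and its share over all genes was not counted. The median fold change of the called genes was 4.8 in the RPE direction and 3.5 in the PR direction, and with the Cy5 signal alone 4.23 and 4.34 for the same genes. More than 10-fold differences were found for 644 genes higher in the RPE and for 47 higher in the PR, and more than 100-fold differences for 13 and 0. Of the genes higher in the RPE, 315 were not above background on any PR array, and of those higher in the PR, 32 were not above background on any RPE array. The split between the directions was 67.6% to the RPE. It was 55.7% with the log ratio that the scanner software gave, and 54.6% with the Cy5 signal alone.

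**Figure D2:**
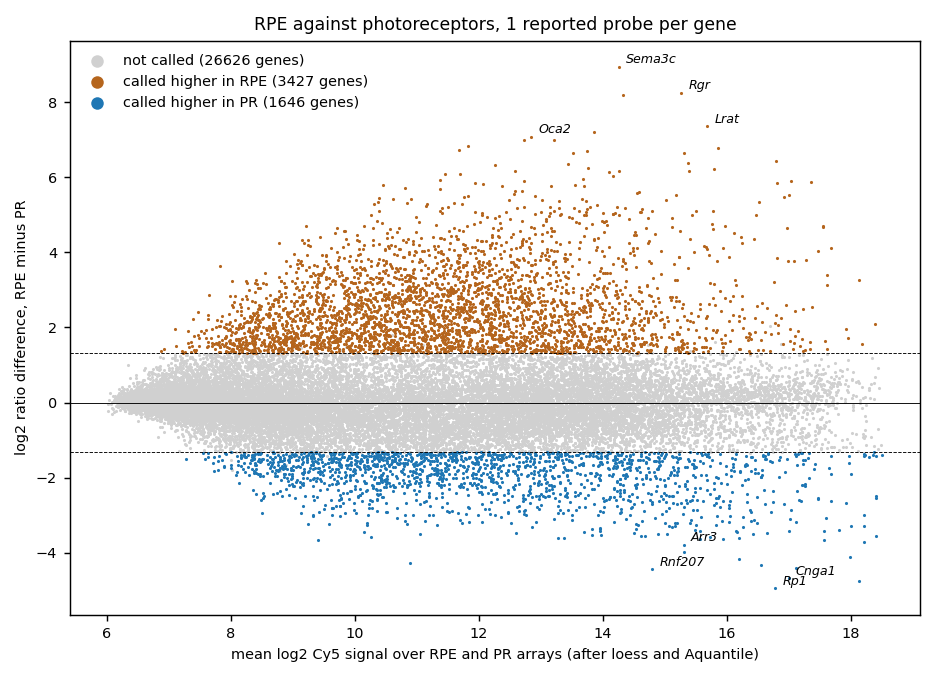
Difference in log2(Cy5/Cy3), RPE minus PR, against the mean log2 Cy5 signal over the RPE and PR arrays, 1 point for each of 31699 genes at its reported probe; dashed lines mark a fold change of 2.5. The 3427 brown points were called higher in the RPE and the 1646 blue points higher in the PR, and the largest difference was that of Sema3c.

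The 12 largest differences in the RPE direction included secreted factors, retinoid and melanosome proteins, membrane transporters and an adhesion protein. Sema3c, a secreted semaphorin that guides axons and vessels (probe at chr5:17235981-17236040, mm9), had values of 3.04, 3.12 and 3.38 on the RPE arrays and -5.49, -6.15 and -5.63 on the PR arrays. The difference was 8.94 ± 0.42 (fold change 490, adjusted p = 1.06e-07), and a second, dimmer Sema3c probe differed by 4.10. Rgr, an opsin-like retinal receptor of the RPE and Müller glia (probe at chr14:37848099-37848158, mm9), had 3.08, 3.07 and 2.86 on the RPE arrays and -4.92, -5.55 and -5.27 on the PR arrays. Its difference was 8.25 ± 0.42 (fold change 305, adjusted p = 1.67e-07). For both genes the RPE arrays lay far above and the PR arrays far below the reference.

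Cfhr2, a gene of the complement locus, had 1.33, 1.22 and 1.08 on the RPE arrays and -5.50, -5.93 and -5.92 on the PR arrays and differed by 7.0 ± 0.19. The other Cfhr2 probe differed by 1.26, so the size of its difference is uncertain. Lrat, which makes the retinyl esters that feed the visual cycle, had 2.96, 2.98 and 2.42 on the RPE arrays and -4.24, -4.88 and -4.57 on the PR arrays, a difference of 7.35 ± 0.31, with 1 RPE array saturated.

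Oca2, a melanosomal membrane protein that sets melanosome pH, had 1.06, 1.29 and 0.79 on the RPE arrays and -5.97, -6.31 and -5.82 on the PR arrays, a difference of 7.08 ± 0.18. Cdh3, the adhesion protein P-cadherin, had 1.72, 1.79 and 1.98 on the RPE arrays and -5.18, -5.13 and -5.19 on the PR arrays, a difference of 7.0 ± 0.26. The PR values of Cdh3 spanned less than 0.1 and the RPE values less than 0.3. Kcnj13, the inward rectifier potassium channel Kir7.1 of the apical RPE membrane, had 2.42, 3.08 and 1.84 on the RPE arrays and -3.98, -4.71 and -4.29 on the PR arrays, a difference of 6.77 ± 0.31, with 2 RPE arrays saturated.

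A further 4 leading genes differed by between 6.68 and 7.19. They were Tlcd4, a membrane protein with a TLC domain (7.19 ± 0.24), Slc39a12, a zinc transporter (6.84 ± 0.30), Plbd1, a phospholipase B domain protein (6.73 ± 0.31), and Wls, which carries Wnt proteins to the cell surface (6.68 ± 0.22).

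In the PR direction the leading differences were smaller and belonged mainly to outer segment and phototransduction genes. Rp1, a microtubule protein of the outer segment axoneme (probe at chr1:4334346-4334405, mm9), had 4.06, 2.87 and 4.30 on the PR arrays and -0.74, -1.76 and -1.10 on the RPE arrays. The difference was -4.95 ± 0.43 (fold change 30.8, adjusted p = 6.69e-06). Cnga1, the rod channel subunit that cyclic GMP opens (probe at chr5:72994946-72995005, mm9), had 3.38, 3.32 and 3.72 on the PR arrays and -0.64, -1.5 and -1.47 on the RPE arrays, a difference of -4.68 ± 0.27 (fold change 25.6, adjusted p = 4.28e-07). For both genes PR values were positive and RPE values negative on every array, and each was saturated on 1 PR array.

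Prph2, a disc rim tetraspanin, Sag, rod arrestin, and Gngt1, the gamma subunit of rod transducin, were saturated on all 3 PR arrays, so that only a bound was measured. Prph2 exceeded its RPE level by at least 2.2-fold, Sag at least 2.65-fold and Gngt1 at least 1.96-fold, with adjusted p = 1.4e-06, 5.75e-07 and 8.72e-05 in the fit. Bounds are on the scale of Cy5 after loess and Aquantile, and with the Cy5 signal alone, scaled by quantiles, the same genes differed by 1.76-fold, 2.25-fold and 1.65-fold (limma adjusted p = 0.0108, 0.00268 and 0.0243), so Prph2 and Gngt1 were not called there. Gngt1 had the widest RPE values of the 3, 1.52, -0.06 and 0.70 in the RPE and 4.66, 4.14 and 4.52 in the PR.

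Pde6h, the inhibitory subunit of cone phosphodiesterase, had 3.53, 3.13 and 4.02 on the PR arrays and -0.34, -1.03 and -0.91 on the RPE arrays, a difference of -4.32 ± 0.26. Arr3, cone arrestin, had 3.01, 3.01 and 2.85 on the PR arrays and -0.62, -0.93 and -0.94 on the RPE arrays, a difference of -3.78 ± 0.15. Kcnv2, a modulatory potassium channel subunit of rods and cones, differed by -4.17 ± 0.35, and Lrit1, a leucine-rich repeat protein of the photoreceptor synapse, by -3.99 ± 0.25. The 2 leading genes outside these roles were Rnf207, a RING finger protein (2.79, 2.86 and 2.56 on the PR arrays and -1.32, -2.0 and -1.79 on the RPE arrays, a difference of -4.44 ± 0.19), and D130050E23Rik, which the files name only by this clone symbol (1.97, 1.84 and 1.06 on the PR arrays and -2.13, -2.98 and -2.87 on the RPE arrays, a difference of -4.28 ± 0.31).

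The log ratio was larger than the change in the Cy5 signal alone for most leading genes. The fold change from the ratio exceeded the Cy5 fold change by more than 1.5 times for 10 of the 12 leading RPE genes and 8 of the 12 leading PR genes, with median fold changes of 132 against 84.8 in the RPE and 19.7 against 7.85 in the PR. A log2 Cy3 value was computed back as Cy5 after loess and Aquantile minus the log ratio, while the Cy5 signal alone was scaled by quantiles. The median of these Cy3 values for the leading RPE genes was 15.19 on the RPE arrays and 16.38 on the PR arrays, although the reference was the same. For the leading PR genes it was 16.26 on the RPE arrays and 14.49 on the PR arrays. For Sema3c the Cy5 difference was 7.26 and for Rgr 5.88. Among all called genes such a gap was found for 128 of 3427 and 72 of 1646, and every called gene kept its direction. The cause was not tested.

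**Figure D3:**
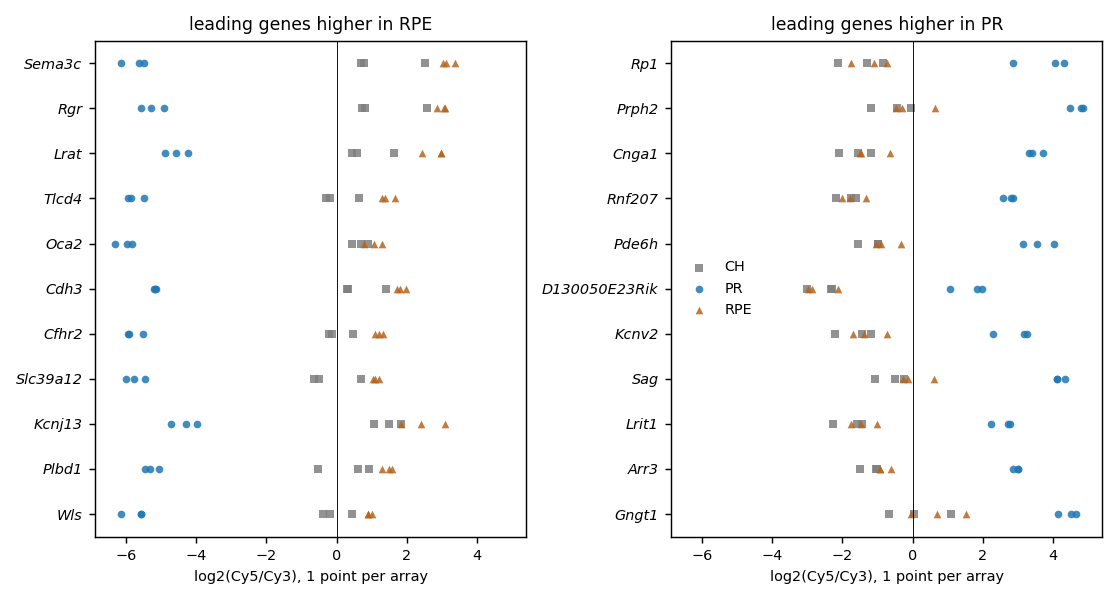
log2(Cy5/Cy3) on each array for 11 of the 12 genes with the largest difference in each direction, with RPE arrays as brown triangles, PR arrays as blue circles and CH arrays as grey squares. In the left panel the highest PR point is -3.98 and the lowest RPE point 0.79, and in the right panel the lowest PR point is 1.06 while RPE points reach 1.52, with no overlap within a gene.

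The promoters of the leading genes were read from RefSeq (mouse assembly GRCm38.p6) and searched on both strands for short motifs of eye transcription factors, since leading genes of a tissue move together. A promoter was listed for 7 of the 12 leading PR genes, and 4 of these held TAATCC, the core bound by CRX and OTX factors, in the 250 bases before the start. Of 10 leading RPE genes with a promoter, 2 held CATGTG, an E-box form bound by MITF. TAATCC was counted in the leading PR genes only, and CATGTG in the leading RPE genes only. The windows of the leading RPE genes Rgr and Slc39a12 also hold TAATCC, so it is not particular to the leading PR genes. The following windows are those 250 bases, 5′ to 3′ on the gene's strand. They are shown because they hold a match, and capitals mark TAATCC or its reverse complement GGATTA and TGCTGA (a part of the MAF and NRL site) in PR genes, and CACATG, the reverse complement of CATGTG, in RPE genes.
Cnga1 (chr5:72642753-72643002, minus strand): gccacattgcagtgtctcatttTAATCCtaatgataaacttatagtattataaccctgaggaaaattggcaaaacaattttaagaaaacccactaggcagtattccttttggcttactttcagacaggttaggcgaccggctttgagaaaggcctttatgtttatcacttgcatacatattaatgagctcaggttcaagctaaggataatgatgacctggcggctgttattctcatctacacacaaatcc
Gngt1 (chr6:3993758-3994007, plus strand): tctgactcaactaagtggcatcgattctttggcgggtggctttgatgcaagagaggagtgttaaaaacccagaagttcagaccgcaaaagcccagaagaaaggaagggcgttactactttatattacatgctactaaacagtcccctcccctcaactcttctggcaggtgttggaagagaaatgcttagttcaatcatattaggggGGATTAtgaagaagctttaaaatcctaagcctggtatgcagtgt
Sag (chr1:87803430-87803679, plus strand): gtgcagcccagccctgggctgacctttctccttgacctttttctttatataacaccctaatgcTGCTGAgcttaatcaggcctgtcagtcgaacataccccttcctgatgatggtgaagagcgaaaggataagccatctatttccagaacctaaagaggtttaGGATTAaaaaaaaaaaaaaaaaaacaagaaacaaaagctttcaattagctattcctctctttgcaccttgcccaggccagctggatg
Lrit1 (chr14:37054580-37054829, plus strand): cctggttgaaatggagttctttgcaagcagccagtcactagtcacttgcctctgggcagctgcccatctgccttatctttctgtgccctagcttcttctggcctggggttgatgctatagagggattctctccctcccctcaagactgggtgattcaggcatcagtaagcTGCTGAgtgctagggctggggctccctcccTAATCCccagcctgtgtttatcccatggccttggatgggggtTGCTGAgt
Kcnj13 (chr1:87394730-87394979, minus strand): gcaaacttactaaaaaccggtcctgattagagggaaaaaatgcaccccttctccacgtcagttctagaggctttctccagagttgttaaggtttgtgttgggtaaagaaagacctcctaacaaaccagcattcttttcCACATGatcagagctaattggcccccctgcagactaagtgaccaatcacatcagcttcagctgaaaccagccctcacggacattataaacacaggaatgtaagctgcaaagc
Oca2 (chr7:56239509-56239758, plus strand): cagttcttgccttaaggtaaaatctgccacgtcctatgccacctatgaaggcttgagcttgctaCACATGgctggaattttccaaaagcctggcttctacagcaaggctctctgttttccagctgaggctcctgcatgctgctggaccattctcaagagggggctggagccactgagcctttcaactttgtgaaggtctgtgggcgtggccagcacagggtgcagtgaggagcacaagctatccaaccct

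The first base of TAATCC or its reverse complement lay at -228 in Cnga1, -44 in Gngt1, -87 in Sag and -50 in Lrit1, counted back from the start of transcription. CACATG lay at -112 in Kcnj13 and -186 in Oca2. Over the 300 bases from 250 before to 50 after the start, TAATCC was found for 10.9% of the 925 genes higher in the PR that had a promoter, 7% of the 2344 higher in the RPE and 7.54% of all 17413 genes. CATGTG was found for 10.2%, 14% and 12.9% of the same groups, TGCTGA for 20.8%, 21.4% and 20.3%, and CACGTG, an E-box bound by TFEB and clock factors, for 9.95%, 9.77% and 9.23%. A match describes the letters in the window only. Lrit1 and Rgr lie next to each other on chromosome 14 with starts 5816 bases apart on opposite strands (GRCm38.p6), and differed by -3.99 and 8.25, in opposite directions.

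Genes of 49 functions and families, 1575 genes in all, are described next by how many members were called. For these counts the background is the 10.8% and 5.19% of all genes. Of these genes 21262 were above background signal on all RPE or all PR arrays, and a fit of such probes alone called 3401 and 1644. The shares are thus higher among genes with signal, and most list members are of this kind. The median difference over all genes was -0.01 on the log2 scale. Where limma called 0 members of a list in the PR direction, 0 to 22 of them had an unadjusted p below 0.05 in that direction, most among the 77 mitochondrial ribosomal protein genes. Where it called 0 in the RPE direction, 0 to 31 had one, most among the 88 cytoplasmic ribosomal protein genes.

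Of 16 visual cycle enzymes and retinoid carriers of the RPE, 11 were called higher in the RPE and 0 in the PR, with a median difference of 4.74. Rpe65, the isomerase of the visual cycle, had 2.49, 2.71 and 2.45 on the RPE arrays and -2.80, -3.10 and -3.07 on the PR arrays. Its probe was saturated on all RPE arrays, so Rpe65 exceeded its PR level by at least 7.19-fold (adjusted p = 8.24e-09), and Rdh5, the 11-cis retinol dehydrogenase, at least 6.93-fold. Stra6, the receptor that takes up retinol, had 1.5, 1.83 and 1.65 on the RPE arrays and -4.56, -4.31 and -4.62 on the PR arrays, a difference of 6.16 ± 0.32. Rdh10, another retinol dehydrogenase, differed by 6.15 ± 0.28. Dhrs3 and Scarb1 were not called (0.48 ± 0.10 and 0.43 ± 0.13). Without probes saturated on any RPE or PR array, 7 of 12 members were called, and with the Cy5 signal alone the median was 2.57 with 10 called, below the 3.05 of laminins and 2.60 of prostaglandin genes, while in the log ratio it was above both (3.08 and 2.66).

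The genes of retinoid clearance and retinoic acid metabolism split between the tissues, 4 of 13 higher in the RPE and 3 in the PR. Those higher in the RPE were Cyp26b1, which degrades retinoic acid (4.20 ± 0.35), Aldh1a2 (3.02 ± 0.14) and Aldh1a3 (2.71 ± 0.27), which make it, and Retsat, which saturates retinol (1.71 ± 0.15). Higher in the PR were Rdh12, an all-trans retinal reductase of the inner segment (-2.61 ± 0.30), and Rbp3, the retinoid carrier of the interphotoreceptor matrix (-2.44 ± 0.27). The Aldh1a3 values were -1.74, -2.81 and -2.89 in the RPE and -5.15, -4.93 and -5.47 in the PR, below the reference in both tissues.

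Of 26 melanin and melanosome genes, 16 were called higher in the RPE and 1 in the PR, with a median of 1.75. Gpr143, a melanosomal receptor, had 0.82, 0.96 and 0.80 on the RPE arrays and -4.53, -4.36 and -4.69 on the PR arrays, a difference of 5.39 ± 0.11. The melanin enzymes Dct and Tyrp1 differed by 4.36 ± 0.33 and 4.24 ± 0.18. The Tyrp1 values were -0.01, -0.10 and -0.73 in the RPE and -4.32, -4.59 and -4.65 in the PR, below the reference on every array. The exception was Mreg, a regulator of melanosome transfer, with -0.90, -1.42 and -1.04 in the RPE and 1.07, 0.59 and 0.79 in the PR and a difference of -1.94 ± 0.17.

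Of 18 transcription factors known in the RPE, 9 were called higher in the RPE and 1 in the PR. Mitf, the master factor of pigment cells, had -0.25, -0.08 and -0.09 on the RPE arrays and -4.19, -4.30 and -4.13 on the PR arrays, a difference of 4.07 ± 0.15. Sox9 differed by 4.88 ± 0.23 and Klf4 by 4.38 ± 0.24. Rax, an eye field factor kept in photoreceptors, was higher in the PR by a difference of -2.70 ± 0.24.

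Photoreceptor factors went the other way, 18 of 23 higher in the PR and 1 in the RPE, with a median of -2.20. Neurod1 had 2.35, 2.10 and 2.63 on the PR arrays and -0.93, -1.73 and -1.13 on the RPE arrays, a difference of -3.62 ± 0.25. Nrl, the rod fate factor, differed by -3.27 ± 0.27 with 2 PR arrays saturated, Samd7, a polycomb protein of rods, by -3.19 ± 0.31, and Casz1 by -3.14 ± 0.28. Nrl differed by 2.09-fold with the Cy5 signal alone and was not called there. Tbx2 was the one member higher in the RPE (1.79 ± 0.18). Rxrg, a retinoid receptor of cones, was not called, with values of 0.78, 0.53 and 0.96 in the RPE and 0.83, 0.53 and 0.95 in the PR.

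All 10 rod phototransduction genes and all 12 cone phototransduction genes were called higher in the PR (medians of -3.16). With the Cy5 signal alone the medians were -1.54 for rod and -3.03 for cone genes, and 3 of the 10 rod genes were saturated on all PR arrays. The rod phosphodiesterase subunit Pde6a differed by -3.40 ± 0.24, with 1.04, 0.23 and 0.60 in the RPE and 3.92, 4.12 and 4.03 in the PR, and the middle wavelength cone opsin Opn1mw by -3.54 ± 0.13, with -1.27, -1.18 and -1.22 in the RPE and 2.17, 2.46 and 2.31 in the PR. Gnat2, cone transducin, had -0.16, -0.27 and -0.52 in the RPE and 2.93, 3.08 and 3.31 in the PR, a difference of -3.42 ± 0.19. Rod transcripts of the RPE samples were not at the floor, since all 15 rod and all 9 cone markers were above background on every RPE array, and rod markers on RPE replicate 1 had a median of 0.64 against -0.28 and -0.12 on the other RPE arrays. With the Cy5 signal alone 6 of the 10 rod genes were called, and in the series table of the authors 5 of the 6 that had a value there.

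Of 17 genes of phototransduction shutoff and calcium feedback, 14 were called higher in the PR and 1 in the RPE. Rgs9bp, the anchor of the shutoff complex, differed by -3.42 ± 0.21, and Grk1, a kinase of visual pigment, by -3.18 ± 0.22. Rgs9, which speeds transducin shutoff, was higher in the RPE at its reported probe, with 1.78, 1.61 and 1.68 in the RPE and -2.75, -2.72 and -2.02 in the PR and a difference of 4.19 ± 0.27. The 3 Rgs9 probes disagreed and differed by between -1.19 and 4.47, so its direction is uncertain. Gucy2f, a retinal guanylate cyclase, was not called (-1.31 ± 0.17).

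Of 20 outer segment disc and interphotoreceptor matrix genes, 16 were called higher in the PR and 0 in the RPE, with a median of -2.55. Impg2, a matrix proteoglycan, had 3.19, 2.94 and 3.25 on the PR arrays and -0.03, -0.93 and -0.56 on the RPE arrays, a difference of -3.63 ± 0.26. Tmem30a, a flippase subunit, was not called (0.96 ± 0.11).

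Of 36 ribbon synapse genes, 20 were called higher in the PR and 0 in the RPE, with a median of -1.78. Mpp4, a scaffold of the terminal, had 2.60, 2.76 and 2.33 on the PR arrays and -0.35, -1.24 and -1.03 on the RPE arrays, a difference of -3.44 ± 0.22. The calcium channel subunit Cacnb2 differed by -2.83 ± 0.19 and Syt1, the calcium sensor of vesicle release, by -2.72 ± 0.24. Snap25 and Ctbp2, the gene of the ribbon protein RIBEYE, were not called (-0.85 ± 0.16 and -0.87 ± 0.13).

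Genes of the connecting cilium and intraflagellar transport were called higher in the PR for 18 of 60 and in the RPE for 1, with a median of -0.82. Rpgrip1, which anchors the RPGR protein at the cilium, had 2.32, 2.33 and 2.18 on the PR arrays and -1.08, -1.5 and -1.37 on the RPE arrays, a difference of -3.59 ± 0.13. The kinase Mak differed by -2.99 ± 0.22, the small GTPase Arl13b by -2.69 ± 0.18 and the BBSome subunit Bbs5 by -2.69 ± 0.18. Ift20 was not called (0.13 ± 0.09).

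The Usher and Crumbs genes split, 7 of 20 higher in the PR and 3 in the RPE. Crb1, an apical polarity protein, differed by -2.57 ± 0.18. Myo7a, a myosin of melanosome and phagosome movement, had 0.49, 0.55 and 0.46 in the RPE and -1.67, -1.83 and -1.78 in the PR and differed by 2.26 ± 0.08 in the RPE direction. Ush1c, harmonin, was not above background on the PR arrays and at least 4.54-fold higher in the RPE. The probes of Pcdh15 differed by between -3.62 and 0.18.

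**Figure D4:**
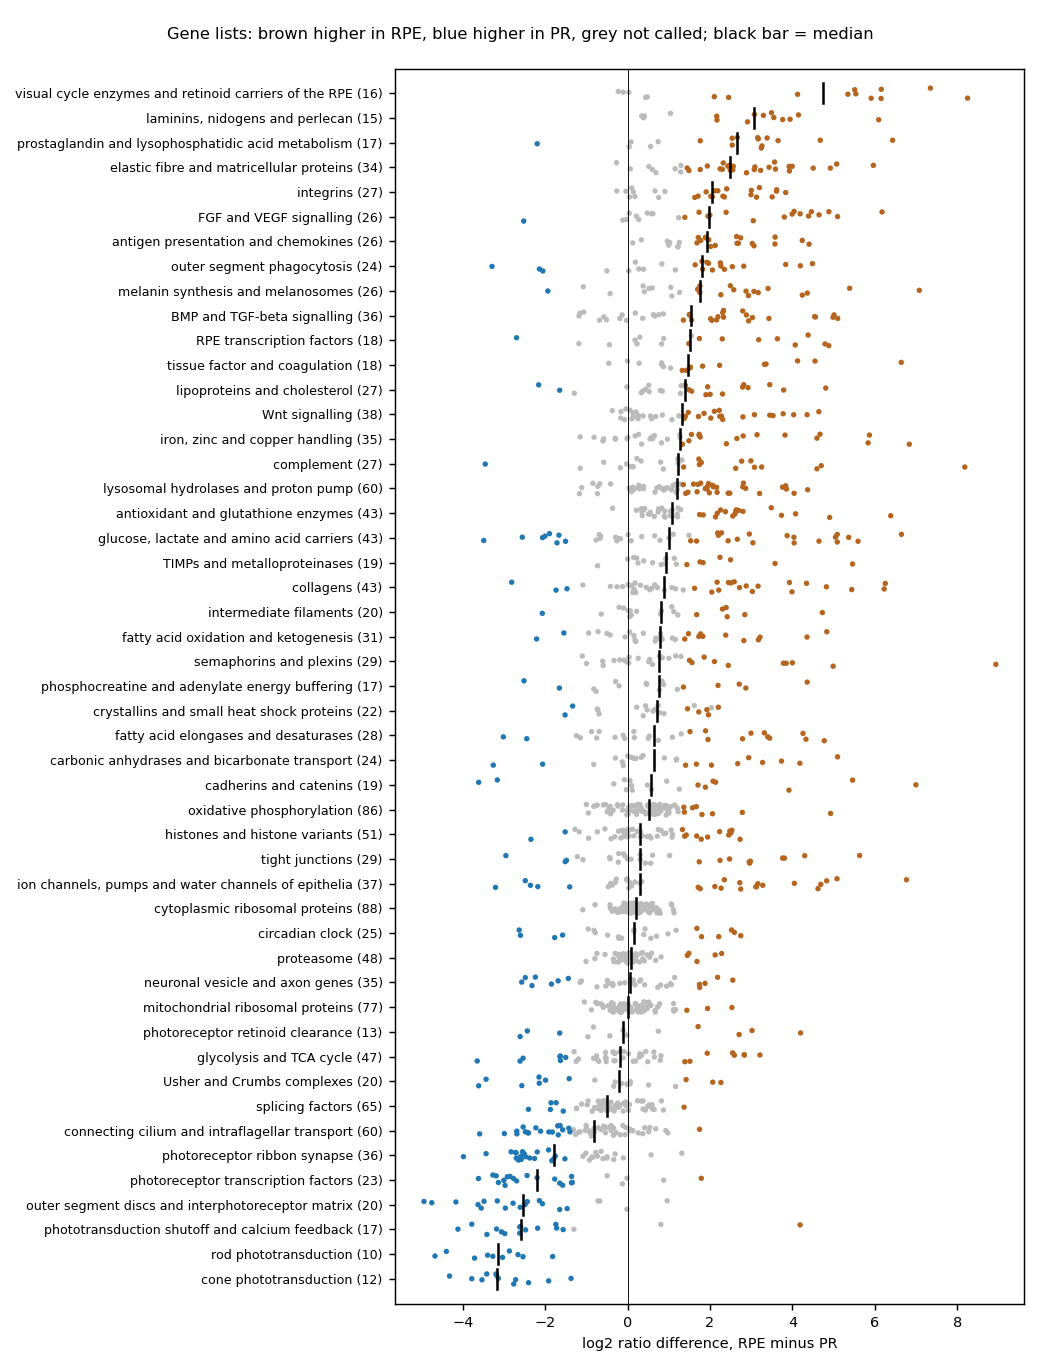
Difference in log2(Cy5/Cy3), RPE minus PR, of every member of 49 gene lists (number of members in brackets), ordered by the list median, which is the black bar. Points are brown where a gene was called higher in the RPE, blue where higher in the PR and grey where not called. Medians run from 4.74 for RPE retinoid genes to -3.16 for cone and rod phototransduction.

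Of 24 genes of outer segment phagocytosis, 14 were called higher in the RPE and 3 in the PR. Mertk, the receptor that triggers engulfment, had 1.24, 1.46 and 1.06 on the RPE arrays and -3.30, -3.07 and -3.33 on the PR arrays, a difference of 4.49 ± 0.13 (adjusted p = 8.03e-09). Itgav, the alpha chain of the binding integrin, differed by 3.84 ± 0.16, the engulfment factor Dock1 by 4.19 ± 0.14 and the scavenger receptor Cd36 by 2.82 ± 0.18. The bridging ligand Gas6 was not called (-0.50 ± 0.15). Tub and Tulp1, tubby proteins that photoreceptors also express, were higher in the PR (-3.29 ± 0.20 and -2.14 ± 0.16), and so was Mfge8, the ligand of that integrin (-2.06 ± 0.12).

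Of 60 genes of lysosomal hydrolases and the proton pump, 28 were called higher in the RPE and 0 in the PR, with a median of 1.19. The cathepsins Ctsc and Ctss differed by 4.37 ± 0.12 and 3.85 ± 0.17. Lipa, acid lipase, had 1.86, 2.21 and 1.28 on the RPE arrays and -2.28, -2.22 and -2.27 on the PR arrays, a difference of 4.04 ± 0.27. Psap, the precursor of saposins, differed by 3.84 ± 0.18. Lamp1 was not called, with 0.13, 0.08 and -0.39 in the RPE and -0.42, -0.28 and -0.34 in the PR.

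Transport genes were called in both directions. Of 37 ion channels, pumps and water channels, 17 were higher in the RPE and 5 in the PR. Atp1b1, a beta subunit of the sodium pump, had 1.16, 1.34 and 0.71 on the RPE arrays and -4.28, -3.42 and -4.34 on the PR arrays, a difference of 5.08 ± 0.25. The potassium channel Kcnq1 was not above background on the PR arrays and stood at least 14.6-fold higher in the RPE. The water channel Aqp1 was not called (-0.47 ± 0.16).

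Of 24 carbonic anhydrases and bicarbonate transporters, 9 were higher in the RPE and 2 in the PR. Car12 and Car14, anchored in the membrane, differed by 5.10 ± 0.28 and 4.18 ± 0.23, and the anion exchanger Slc4a2 by 3.73 ± 0.19. The cytosolic Car2 and the sodium bicarbonate transporter Slc4a7 were higher in the PR (-2.06 ± 0.17 and -3.26 ± 0.16).

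Of 43 carriers of glucose, lactate and amino acids, 19 were higher in the RPE and 8 in the PR. Slc6a13, a GABA and taurine carrier, had 2.41, 2.84 and 2.30 on the RPE arrays and -2.98, -3.18 and -3.07 on the PR arrays, a difference of 5.59 ± 0.26. Cltrn, a partner of amino acid carriers, differed by 6.65 ± 0.33, Slco1c1, a thyroid hormone carrier, by 5.37 ± 0.27 and Slc22a8, an organic anion carrier, by 5.09 ± 0.16. Slc16a8, the basolateral lactate carrier MCT3 of the RPE, had 1.58, 1.77 and 1.28 in the RPE and -2.39, -2.07 and -2.52 in the PR. The glutamate carrier Slc1a7 had 2.44, 2.38 and 2.33 on the PR arrays and -0.75, -1.25 and -1.33 on the RPE arrays, a difference of -3.49 ± 0.20.

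Junction and filament genes were called mainly in the RPE direction. Of 29 tight junction genes, 10 were higher in the RPE and 3 in the PR. Cldn1 differed by 5.63 ± 0.18 and the cytoplasmic plaque protein Cgn by 3.76 ± 0.21. Cldn5, which endothelium also carries, differed by 4.30 ± 0.16, as did the endothelial cadherin Cdh5, by 5.46 ± 0.19. Marveld3 and Jam2 were higher in the PR (-2.96 ± 0.23 and -1.52 ± 0.09), and Tjp1 was not called (-0.23 ± 0.15).

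Of 19 cadherins and catenins, 7 were higher in the RPE and 2 in the PR. Besides Cdh3 these included Ctnnd1, p120 catenin (2.14 ± 0.11), while Cdhr1, a cadherin of new discs, was higher in the PR (-3.16 ± 0.23). Of 20 intermediate filament genes, 6 were higher in the RPE and 1 in the PR. The simple epithelial keratins Krt8 and Krt18 differed by 4.73 ± 0.22 and 2.84 ± 0.24.

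Matrix genes were called mainly in the RPE direction. Of 34 genes of elastic fibres and matricellular proteins 26 were higher in the RPE, of 15 laminins, nidogens and perlecan 11, of 27 integrins 18, of 43 collagens 18 and of 19 TIMPs and metalloproteinases 7. In the PR direction only 3 collagens were called among these lists. The median differences were 2.48, 3.08, 2.06, 0.89 and 0.92. The fibroblast and endothelial markers given above were also called mainly in the RPE direction. The fibroblast markers Col1a1, Col1a2, Col3a1 and Fbln1 are themselves members of these lists, so the agreement is partly of the same genes. Which cells the matrix transcripts came from was not tested.

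Col8a1 and Col8a2, the chains of type VIII collagen, differed by 6.25 ± 0.19 and 6.23 ± 0.31, and Col1a1, a fibrillar chain counted as a fibroblast marker, by 4.82 ± 0.12. The Col8a1 values were 1.12, 0.95 and 1.02 in the RPE and -5.17, -5.14 and -5.37 in the PR. Col19a1 and Col26a1 were higher in the PR (-2.81 ± 0.29 and -1.74 ± 0.25), and Col4a3 was not called (0.54 ± 0.11).

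The basement membrane linker Nid2 had 0.80, 0.90 and 0.55 on the RPE arrays and -5.22, -5.38 and -5.42 on the PR arrays, a difference of 6.09 ± 0.17. Lama2, Lamb1 and Lamc3, laminin chains, differed by 4.15 ± 0.15, 3.94 ± 0.13 and 3.76 ± 0.10. Thbs1, an inhibitor of vessel growth, differed by 5.96 ± 0.24, the microfibril protein Fbn1 by 5.07 ± 0.17 and Fbln5, which assembles elastic fibres, by 4.92 ± 0.14. Timp3, a metalloproteinase inhibitor held in Bruch's membrane, was saturated on the RPE arrays and at least 7.79-fold higher in the RPE. The integrins Itga4, Itgb8 and Itga6 differed by 3.62 ± 0.13, 3.61 ± 0.19 and 3.51 ± 0.21.

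Of 27 complement genes, 12 were called higher in the RPE and 1 in the PR. These included the protease C1ra (4.6 ± 0.13) and the regulators Clu, saturated on the RPE arrays and at least 3.36-fold higher (3.3-fold with the Cy5 signal alone), and Cd55, not above background on the PR arrays and at least 5.01-fold higher. Vtn, vitronectin, was higher in the PR, with 2.60, 3.03 and 2.91 on the PR arrays and -0.25, -0.83 and -0.74 on the RPE arrays and a difference of -3.46 ± 0.19. Cd59a, which blocks the membrane attack complex, was not called, with 1.13, 1.21 and 1.15 on the PR arrays and 0.18, 0.01 and -0.16 on the RPE arrays and a difference of -1.15 ± 0.12.

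Of 26 genes of antigen presentation and chemokines, 18 were higher in the RPE and 0 in the PR. B2m, the light chain of class I molecules, had 0.13, 0.18 and -0.20 on the RPE arrays and -4.35, -4.17 and -4.58 on the PR arrays, a difference of 4.4 ± 0.16, and the chemokines Cxcl12, Ccl5 and Ccl11 differed by 4.24 ± 0.17, 3.58 ± 0.28 and 3.58 ± 0.12. The median macrophage and leukocyte marker ranged from -0.99 to -0.82 in the RPE, from -2.72 to -2.61 in the PR and from 0.14 to 0.70 in the CH. The median value of the antigen presentation and chemokine genes was -0.16 in the RPE, -2.21 in the PR and 0.58 in the CH. Of 18 coagulation genes, 11 were higher in the RPE and 0 in the PR. F3, tissue factor, had 1.33, 1.61 and 1.39 on the RPE arrays and -5.31, -4.88 and -5.41 on the PR arrays, a difference of 6.64 ± 0.29, and thrombomodulin, Thbd, differed by 4.55 ± 0.13. Vwf, an endothelial marker, differed by 4.13 ± 0.12.

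Growth factor pathways were called mainly in the RPE direction. Of 36 genes of BMP and TGF-beta signalling, 21 were higher in the RPE and 0 in the PR, while 4 were higher in the PR with the log ratio of the scanner software, 2 with median centring and 1 each with the Cy5 signal alone and the series table. The ligands Bmp4 and Bmp2 differed by 5.10 ± 0.25 and 4.99 ± 0.22, the co-receptor Tgfbr3 by 5.01 ± 0.11 and the target Id1 by 4.56 ± 0.14. The Id1 values were -0.39, -0.20 and -0.08 in the RPE and -4.96, -4.76 and -4.63 in the PR. The receptors Bmpr1a and Tgfbr1 were not called (-0.58 ± 0.21 and 0.66 ± 0.09).

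Of 38 Wnt genes, 19 were higher in the RPE and 0 in the PR. The secreted inhibitors Sfrp5, Sfrp1 and Dkk2 differed by 4.64 ± 0.22, 4.03 ± 0.24 and 3.77 ± 0.26 and the receptor Fzd1 by 4.36 ± 0.17. Axin2, a common target of the pathway, was not called, with -0.76, -1.15 and -0.56 in the RPE and -0.90, -1.47 and -0.85 in the PR.

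Of 26 genes of FGF and VEGF signalling, 16 were higher in the RPE and 1 in the PR. The receptor Fgfr1 differed by 4.89 ± 0.19, and the feedback inhibitors Spry1 and Dusp6 by 6.18 ± 0.14 and 5.10 ± 0.15. Spry1 had 0.99, 1.08 and 1.13 on the RPE arrays and -5.08, -5.25 and -5.01 on the PR arrays. The ligand Fgf9 was higher in the PR, with 0.80, 1.05 and 0.96 on the PR arrays and -1.37, -1.78 and -1.61 on the RPE arrays and a difference of -2.52 ± 0.14. Of 29 semaphorins and plexins, 10 were higher in the RPE and 0 in the PR, among them Sema3b (4.99 ± 0.12), Sema3g (4.00 ± 0.14) and the receptor Plxnd1 (3.85 ± 0.23).

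Prostaglandin and lysophosphatidic acid genes were called higher in the RPE for 12 of 17 and in the PR for 1, with a median of 2.66. Enpp2, autotaxin, which makes lysophosphatidic acid, was saturated on the RPE arrays and at least 10.1-fold higher. Ptgis, prostacyclin synthase, differed by 4.68 ± 0.11, Ptgs1, a cyclooxygenase, by 3.65 ± 0.26 and the receptor Lpar4 by 3.39 ± 0.14. Ptges, prostaglandin E synthase, was higher in the PR at its reported probe (-2.20 ± 0.16), but its other probe differed by 1.61, so its direction is uncertain.

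Of 27 lipoprotein and cholesterol genes, 14 were higher in the RPE and 2 in the PR. Apoe, a ligand of lipoprotein receptors, was saturated on the RPE arrays and at least 4.59-fold higher. Pltp, phospholipid transfer protein, differed by 4.81 ± 0.26 in a fit without PR replicate 1, whose spot was marked as an outlier, and the receptors Lrp2 and Lrp8 by 3.45 ± 0.28 and 2.92 ± 0.20. Abcg1, a sterol exporter, was higher in the PR (-2.16 ± 0.14). The probes of Vldlr disagreed, between -1.30 and 2.21.

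Of 31 genes of fatty acid oxidation and ketogenesis, 11 were higher in the RPE and 2 in the PR. Of the acyl-CoA dehydrogenases, the long chain Acadl had 0.18, 0.30 and 0.21 on the RPE arrays and -4.10, -4.14 and -4.13 on the PR arrays and differed by 4.35 ± 0.10 and the short chain Acads by 3.21 ± 0.15, while the medium chain Acadm was higher in the PR (-1.55 ± 0.13) and the very long chain Acadvl was not called (0.15 ± 0.17). Cpt1b, a mitochondrial fatty acid importer, was higher in the PR (-2.21 ± 0.18).

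Of 28 fatty acid elongases, desaturases and their partners, 11 were higher in the RPE and 2 in the PR. Mfsd2a, the carrier of docosahexaenoic acid, had 1.71, 1.29 and 1.34 on the RPE arrays and -2.67, -2.96 and -2.80 on the PR arrays, a difference of 4.26 ± 0.25, and Fads3 differed by 4.77 ± 0.16. Elovl4, which makes very long chain fatty acids of the discs, was higher in the PR, with 1.89, 2.98 and 2.54 on the PR arrays and -0.11, -0.72 and -0.82 on the RPE arrays and a difference of -3.02 ± 0.28, and Fabp12 likewise (-2.45 ± 0.23).

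Of 35 genes of iron, zinc and copper handling, 16 were higher in the RPE and 0 in the PR. Trf, transferrin, Mt2 and Mt1, metallothioneins, were saturated on the RPE arrays. They were at least 4.49-fold, 8.59-fold and 3.3-fold higher, and the Trf values lacked PR replicate 3, whose spot was marked. With the Cy5 signal alone Trf differed by 4.28-fold and Mt1 by 3.25-fold. Of 43 antioxidant and glutathione genes, 17 were higher in the RPE and 0 in the PR, among them Pon1, a paraoxonase (6.39 ± 0.31), Gsta1 (4.90 ± 0.13), Selenop, a selenium carrier (4.08 ± 0.19), and Nqo1 (3.73 ± 0.11). Gpx4 was not called (0.90 ± 0.20).

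Central energy metabolism was divided. Of 47 genes of glycolysis and the TCA cycle, 8 were called higher in the RPE and 7 in the PR. Ldha, the lactate dehydrogenase subunit that favours lactate, had 2.63, 2.18 and 3.19 on the PR arrays and -0.89, -1.20 and -0.87 on the RPE arrays, a difference of -3.65 ± 0.23. Its fold change was 12.6 in the log ratio and 2.92 with the Cy5 signal alone. Ldhb, the subunit that favours pyruvate, had 0.51, 0.71 and 0.13 on the RPE arrays and -2.34, -2.44 and -2.36 on the PR arrays, a difference of 2.83 ± 0.20. Hk2, hexokinase 2, differed by -2.61 ± 0.15. Pdk4, which inhibits pyruvate dehydrogenase, pyruvate carboxylase, Pcx, and the mitochondrial isocitrate dehydrogenase Idh2 were higher in the RPE (3.21 ± 0.16, 2.83 ± 0.17 and 2.59 ± 0.12). Gapdh and Aldoa were not called (-0.83 ± 0.20 and -0.30 ± 0.14).

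Of 86 oxidative phosphorylation genes, 8 were higher in the RPE, a share of 9.3% and so below the 10.8% of all genes, and 0 in the PR. Their median difference was 0.51, against -0.01 over all genes. By limma 54 members had an unadjusted p below 0.05 in the RPE direction and 11 in the PR direction. Among all 31699 genes the same counts were 8659 and 8863. The leading member was Cox8b, a subunit of cytochrome oxidase, with 1.14, 1.62 and 0.91 on the RPE arrays and -3.61, -3.82 and -3.69 on the PR arrays and a difference of 4.93 ± 0.25. Ndufa4l2 and Cox6b2 differed by 2.78 ± 0.13 and 2.06 ± 0.09. The ATP synthase subunit Atp5b was not called (-0.50 ± 0.19). With the Cy5 signal alone 4 members were called, and 5 in the series table.

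Of 17 genes of phosphocreatine and adenylate buffering, 5 were higher in the RPE and 2 in the PR. The adenylate kinases differed among themselves, Ak5 by 4.36 ± 0.13 and Ak3 by 2.71 ± 0.11 in the RPE direction and Ak4 by -1.66 ± 0.24 in the PR direction. Impdh1, the rate-limiting enzyme of guanine nucleotide synthesis, was higher in the PR (-2.52 ± 0.26). The brain creatine kinase Ckb was not called (-0.77 ± 0.12).

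In several families close relatives were called in opposite directions, and 9 such pairs were picked after their values were seen. For Ldhb and Ldha, Acadl and Acadm, Elovl7 and Elovl4, Car14 and Car2, Ak3 and Ak4 and the bicarbonate carriers Slc4a5 and Slc4a7, the first gene was higher in the RPE and the second in the PR. The potassium chloride cotransporters Slc12a4, found in many cells, and Slc12a5, found in neurons, differed by 4.83 ± 0.11 and -3.21 ± 0.15. Slc12a4 had 1.31, 1.64 and 1.52 in the RPE and -3.47, -3.20 and -3.35 in the PR, and Slc12a5 had -1.85, -2.45 and -2.36 in the RPE and 1.02, 1.07 and 0.87 in the PR. The nuclear lamins Lmna and Lmnb1 differed by 2.42 ± 0.12 and -2.07 ± 0.10. The splicing repressor Ptbp1 differed by 1.37 ± 0.10 and its neuronal relative Ptbp2 by -1.86 ± 0.14. With the Cy5 signal alone Ptbp1 differed by 2.1-fold and was not called, nor was any splicing factor called higher in the RPE there, with median centring, with the scanner log ratio or in the series table. No pair had overlapping arrays, as held for every called gene.

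**Figure D5:**
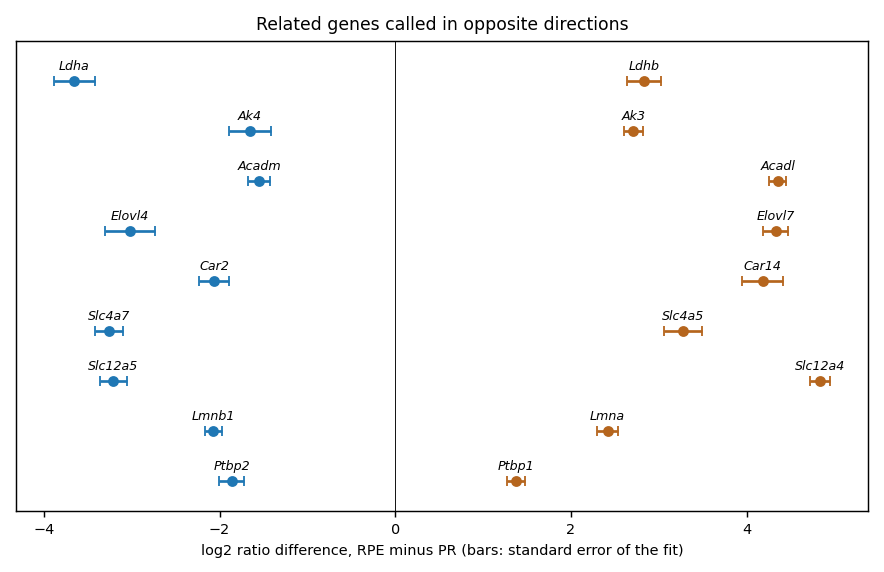
Difference in log2(Cy5/Cy3), RPE minus PR, with the standard error of the fit as bars, for 9 pairs of related genes called in opposite directions, 1 pair on each line with the gene higher in the RPE on the right. The smallest difference on the right is that of Ptbp1 at 1.37 and on the left that of Acadm at -1.55.

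By limma, 0 of 88 cytoplasmic ribosomal protein genes were called, while 31 had an unadjusted p below 0.05 in the RPE direction and 6 in the PR direction. Of these genes 20 had an adjusted p below 0.01 without passing the fold threshold, and their differences ran from -1.09 to 1.13.

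Of 77 mitochondrial ribosomal protein genes, 3 were higher in the RPE (Mrps6 by 2.53 ± 0.11, Mrpl58 by 1.94 ± 0.17 and Mrpl36 by 1.44 ± 0.14). That share of 3.9% is below the 10.8% of all genes. Mrpl36 differed by 2.27-fold with the Cy5 signal alone and was not called there. Of 48 proteasome genes, 5 were higher in the RPE, a share of 10.4% and so no more than the 10.8% of all genes. All 5 belong to the immunoproteasome or the PA28 activator. These were Psme1 (2.28 ± 0.10), Psmb9 (2.12 ± 0.15), Psmb8 (1.68 ± 0.17), Psme2 (1.49 ± 0.12) and Psmb10 (1.45 ± 0.13), of which 3 were called with the Cy5 signal alone. The core subunit Psmb6 was not called (-0.04 ± 0.13).

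Of 65 splicing factors, 5 were higher in the PR (7.69%) and 1 in the RPE (1.54%). All 65 were above background signal on all RPE or all PR arrays, and among such genes the PR share is also above 5.19%. Srrm4, the neuronal microexon regulator, had 0.64, 0.52 and 0.38 on the PR arrays and -1.72, -2.20 and -1.76 on the RPE arrays, a difference of -2.41 ± 0.14, and its relative Srrm3 differed by -1.88 ± 0.13. With median centring in place of loess, 8 were higher in the PR. Of 51 histone genes, 12 were higher in the RPE and 2 in the PR. The replication histones H4c11 and H2ac18 differed by 2.73 ± 0.18 and 2.51 ± 0.18, and the replacement variant H3f3b by -2.35 ± 0.28. H3f3b differed by 2.31-fold with the Cy5 signal alone and was not called there. Histone probes may share transcripts of near-identical copies. With the log ratio of the scanner software, 5 histone genes were higher in the PR.

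Of 25 clock genes, 6 were higher in the RPE and 4 in the PR. Arntl, an activator of the clock, had 1.63, 1.66 and 1.71 on the PR arrays and -0.70, -1.26 and -0.85 on the RPE arrays, a difference of -2.60 ± 0.18. Its targets Per2 and Dbp went the other way, with 0.37, 0.72 and 0.45 on the RPE arrays and -1.37, -1.89 and -1.83 on the PR arrays for Per2 and 1.11, 2.06 and 1.12 on the RPE arrays and -1.45, -1.02 and -1.02 on the PR arrays for Dbp. Their differences were 2.21 ± 0.16 and 2.59 ± 0.24. Bhlhe40 differed by 2.52 ± 0.11 and Drd4, a dopamine receptor of photoreceptors, by -2.63 ± 0.21. The hour at which the eyes were taken is not given in the sources used here.

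Of 35 neuronal vesicle and axon genes, 7 were higher in the PR and 5 in the RPE. Snap91, an endocytic adaptor, differed by -2.57 ± 0.23, and the microtubule proteins Map1b and Map2 by -2.32 ± 0.26 and -2.24 ± 0.24. The glutamate receptor subunit Gria3 was higher in the RPE (2.18 ± 0.21). Of 22 crystallins and small heat shock proteins, 5 were higher in the RPE and 2 in the PR, with a median of 0.70 that turned to -0.40 without RPE replicate 3, the array with the high lens markers. On that array Crybb2, a lens crystallin, stood at 4.61, against 0.64 and 0.18 on the other RPE arrays. Hspb2 and Cryz, called higher in the RPE, differed by 2.20 ± 0.22 and 1.92 ± 0.11, and Hspa1a, higher in the PR, by -1.52 ± 0.11.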

How the data were processed

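The 9 dual-colour whole genome arrays were scanned, and the deposited Cy5 and Cy3 intensity values are spot means with local background, read by the authors with Agilent Feature Extraction (version 9.5.3.1 in the submitters' processing notes). Each deposited file also holds a log10 ratio of the processed signals, which the authors' software computed. The deposited series table of the authors holds log2 values made with R 2.14.0 and limma, whose exact scale and centring stay unknown, and it served as an alternative.

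Of 44397 spots 43020 were not controls. Spot means were background corrected (normexp, offset 50), normalised by loess within each array and averaged over spots of a probe. Spots marked as outliers were dropped. limma 3.58.1 in R 4.3.3 fitted RPE, PR and CH over 9 arrays, and the RPE minus PR contrast was tested two-sided over 39429 probes with Benjamini-Hochberg adjustment. A gene was called past 2.5-fold where the adjusted p was under 0.01. Probes were named by RefSeq accession (26164), symbol (3123), older symbol (910) or the name in the file (9232). Probe positions are mm9 as in the files. A gene saturated on all arrays of one tissue, or not above background on all arrays of one, has only a bound, taken from Cy5 after loess and Aquantile, which is open to dye bias.

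The rule for named genes took the 12 largest differences in each direction, and in each list 4 members called in its main direction, 2 called in the other and 2 not called, and the markers. Genes outside it are Mfge8 and Psmb10, each named after its value was seen, because few members were called. Some genes that the rule took are not reported here. The members, gene lists and markers were chosen with earlier results of these data known. Nothing in the labels ties samples to separate animals beyond their numbers, so that p-values measure only the spread between these samples, which may be technical. The number of arrays limits the precision. The fit was tested on simulated data over 38847 probes, of which 200 were changed. It called 93 of 100 probes changed by 2 on the log2 scale, 98 of 100 changed by 3 and 0 unchanged ones. The simulated noise was independent and normal, with no slide or dye effect, saturation or background floor. These counts therefore do not measure the rate of false calls in the real arrays. Python 3.11.15 with pandas 2.3.3 summarised the lists.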

Additional observations from a re-analysis of the deposited data

How the results depend on the processing

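Of the counts of called genes in both directions, none reversed, and 56 of 60 alternative counts lay within 1.5 times of those reported. Some of these could hardly move. Aquantile after loess leaves the log ratios as they are and gave 3427 and 1646 again. Leaving out a CH array changes only the estimate of the spread. The test against a fold change of 2.5 called 2008 genes higher in the RPE and 571 in the PR. The log ratio of the scanner software called 2810 genes higher in the PR and a fold change above 2 called 2759. Leaving out 1 replicate gave 3371 to 3469 genes higher in the RPE and 1524 to 1741 in the PR. The replicate block gave 3432 and 1651. Correlations between the RPE and PR deviations from their tissue means were -0.02, 0.23 and 0.29 for equal replicate numbers. For unequal numbers they ran from -0.31 to 0.16. Whether equal numbers came from the same eye was not tested. With slide as a block 3311 and 1747 genes were called, of which 4537 in all were also among the reported ones. The share of calls higher in the RPE was 67.6% as reported, 59.2% with median centring, 55.7% with the scanner software's log ratio and 54.6% with Cy5 alone. The median over all genes moved by less than 0.1 in each of these. The medians of 5 lists changed sign in some alternative: crystallins, mitochondrial ribosomal proteins, proteasome, clock and neuronal genes. The cause of these moves was not tested. Saturation, background and the number of arrays limit what the folds can show.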
